A study of Homo sapiens with 12 samples.

Results

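The RNA of 10 genes of the autophagy pathway was followed in 12 libraries of human cells treated or not with 77-39, an inhibitor of the mitochondrial deacetylase SIRT3. The genes were ULK1, BECN1, WIPI1, ATG7, ATG5, MAP1LC3B, GABARAPL1, GABARAPL2, SQSTM1 and OPTN, taken by symbol, and they are 10 of the 58735 genes measured. KGN is an established line from a human granulosa cell tumor, and COV434 is an established line from an ovarian tumor long used as a granulosa cell model. Each line gave 3 untreated libraries and 3 libraries after 72 h with 77-39. The label gives the dose as 10 with the unit written um/ml, and the untreated samples carry the same dose text, so they were taken as untreated from their titles. In each comparison of treated with untreated libraries both arms come from the same line, and no vehicle is named for the untreated cells. Nothing in the labels says that the libraries of a group came from separate cultures, so the p-values measure only the spread between these libraries.

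Autophagy encloses cell material in a double membrane and delivers it to the lysosome. The ULK1 kinase starts the process, the lipid kinase complex of BECN1 marks the membrane with a phosphoinositide that WIPI1 binds, and ATG7 and ATG5 attach the ATG8 proteins (MAP1LC3B, GABARAPL1 and GABARAPL2 among them) to the membrane lipid. Receptors such as SQSTM1 (p62) and OPTN (optineurin) hold both an ATG8 protein and the cargo. RNA levels do not measure the flux of material through the pathway, and in bulk RNA fewer cells and less RNA per cell cannot be told apart.

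The identity of the cell lines has to be read with care. FOXL2, a transcription factor that defines granulosa cells and is expressed in KGN, had 2 reads over the 6 libraries labelled KGN and 3769 over the 6 labelled COV434. SMARCA2, whose loss together with SMARCA4 is known of COV434, was at 0.00296 to 0.0087 FPKM under the KGN label and at 4.51 to 6.48 FPKM under the COV434 label (FPKM, fragments per kilobase of gene, scaled to library size). SMARCA4 was also lower under the KGN label, at 2.25 to 2.6 FPKM against 6.51 to 12.6 FPKM under the COV434 label. The levels of FOXL2 and SMARCA2 go against the labels, and SMARCA4 differed in the direction of SMARCA2. The labels were kept, and all results are given for the libraries as labelled. Of 11 granulosa cell markers, 3 or 4 had a mean of at least 1 FPKM in each group, and FSHR was at 0 in all 12 libraries. Their summed level was 54.1 to 70.2 FPKM under the KGN label, of which WT1 made up 45.9 to 61.4 FPKM, and 22.6 to 27.8 FPKM under the COV434 label, where WT1 was at 0. AMH and INHA ran the other way, at 4.07 to 4.83 and 0.58 to 1.22 FPKM under the KGN label and 5.45 to 9.14 and 2.4 to 5.22 FPKM under the COV434 label. The 9 markers of leukocytes, endothelium and epithelium summed to 0.281 to 0.34 FPKM untreated and 0.369 to 0.446 treated under the KGN label, and to 1.66 to 2.54 FPKM untreated and 0.48 to 0.868 treated under the COV434 label. The 5 retina markers, measured because the extraction text names retinas, summed to at most 0.132 FPKM. Depth was 15547851 to 18280415 reads on genes per library. The mitochondrial share of reads was 7.3% to 8.81% for KGN and 7.71% to 13.5% for COV434, where treated library 1 was highest.

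The promoter of MAP1LC3B is shown because this gene had the smallest p among the 10 for its response in KGN as labelled and the only response that differed between the lines. Those of SQSTM1 and GABARAPL1 are shown beside it because their levels differed most between the lines. Each is the 250 bases before the RefSeq start on GRCh38.p14, on the plus strand, at chr16:87392086-87392335 for MAP1LC3B, at chr5:179820655-179820904 for SQSTM1 (1 of its 3 annotated starts) and at chr12:10212627-10212876 for GABARAPL1. Capitals mark a match to the core of the antioxidant response element, TGACNNNGC on either strand, which NFE2L2 is known to bind.
MAP1LC3B: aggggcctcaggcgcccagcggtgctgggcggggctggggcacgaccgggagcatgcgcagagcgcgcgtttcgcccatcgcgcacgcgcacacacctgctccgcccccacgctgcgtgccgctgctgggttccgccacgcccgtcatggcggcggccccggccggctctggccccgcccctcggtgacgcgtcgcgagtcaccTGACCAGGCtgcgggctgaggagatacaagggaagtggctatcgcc
SQSTM1: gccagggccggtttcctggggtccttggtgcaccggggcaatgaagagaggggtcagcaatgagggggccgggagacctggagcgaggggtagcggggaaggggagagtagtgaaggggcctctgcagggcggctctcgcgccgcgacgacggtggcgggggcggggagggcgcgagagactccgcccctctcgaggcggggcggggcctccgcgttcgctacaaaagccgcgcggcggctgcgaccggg
GABARAPL1: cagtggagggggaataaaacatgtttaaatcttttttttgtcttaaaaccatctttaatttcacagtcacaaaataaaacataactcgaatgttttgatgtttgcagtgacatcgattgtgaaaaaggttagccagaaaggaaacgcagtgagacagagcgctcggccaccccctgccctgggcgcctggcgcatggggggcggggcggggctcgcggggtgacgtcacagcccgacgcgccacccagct

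Over the 14 promoter windows of the 10 genes, MAP1LC3B was the 1 gene with this core, which lay 46 bases before its start, and 10.9% of 35116 promoters of the same length hold it. The E-box CACGTG, the core of the element of TFEB and TFE3, was in 0 of the 10 genes and in 6.34% of all promoters. The element TGATGNAA, bound by ATF4, was in 0 of the 10 and in 3.14% of all promoters. No match overlapped another, and a match describes letters only.

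Without 77-39, the 10 genes had different orders of level in the lines. In the untreated libraries labelled KGN, MAP1LC3B (21.9 ± 1.04 FPKM, SD, n = 3) and OPTN (20.3 ± 0.736) were highest, with overlapping ranges. GABARAPL2 (16.0 ± 1.14) and SQSTM1 (9.99 ± 0.41) followed, each separated from its neighbours. ULK1, BECN1 and ATG5 lay at 4.83 to 5.07 FPKM with overlapping ranges, and ATG7, WIPI1 and GABARAPL1 were lowest. In the untreated libraries labelled COV434, SQSTM1 was highest at 76.9 ± 13.1 FPKM, and ULK1 (33.9 ± 7.09) and GABARAPL1 (29.5 ± 1.65) came next with overlapping ranges. ATG5, WIPI1, ATG7 and BECN1 stood at the lower end, at 3.56 to 4.85 FPKM, and each overlapped its neighbour.

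In all, 5 genes were lower in the untreated libraries labelled KGN, 2 were higher and 3 did not pass the test. GABARAPL1, an ATG8 protein, differed most, at 0.95, 0.902 and 0.87 FPKM in the libraries labelled KGN (63 to 72 reads) against 27.7, 30.8 and 30.1 in those labelled COV434. The ranges were far apart, with means 32.5 times higher in COV434 and a log2 difference of -4.00 (KGN minus COV434, SE 0.08, limma adjusted p = 6.68e-08). On the log2(FPKM + 1) scale used for all tests this understates the difference of a gene this low. SQSTM1, the ubiquitin-binding receptor, was at 10.3, 10.1 and 9.53 FPKM in the untreated libraries labelled KGN and at 91.0, 65.0 and 74.8 in those labelled COV434. Its log2 difference was -2.81 (SE 0.13, limma adjusted p = 3.19e-06). ULK1, the kinase that starts autophagy, was at 4.63, 5.26 and 5.31 FPKM against 42.0, 30.2 and 29.4, a log2 difference of -2.51 (SE 0.15, limma adjusted p = 9.83e-06). In none of these 3 genes did the groups overlap.

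WIPI1 (log2 difference -1.24, SE 0.11) and ATG7 (-0.52, SE 0.14) were also lower in the libraries labelled KGN, whereas OPTN (0.72, SE 0.08) and BECN1 (0.36, SE 0.09) were higher. The limma adjusted p-values were 5.66e-05, 0.0143, 0.000201 and 0.0123. The calls of ATG7 and BECN1 rest on single libraries, since without untreated library 1 of KGN the limma adjusted p was 0.0581 for ATG7 and 0.0514 for BECN1, and without untreated library 2 of KGN it was 0.0575 for BECN1. GABARAPL2 passed only without untreated library 1 of COV434 (log2 difference -0.62, limma adjusted p = 0.000645), against -0.36 (SE 0.22) with all libraries. MAP1LC3B (-0.11, 95% interval -0.38 to 0.16) did not pass, and it turned to 0.30 with a limma adjusted p of 0.0263 after quantile normalization. ATG5 (0.04, -0.49 to 0.56) did not pass either. Of the genes tested, 36.4% were lower and 32.6% higher in the libraries labelled KGN, so the 5 and 2 of 10 stand beside a background in which most genes differed. Cell line, label and any batch between the lines cannot be told apart in this comparison.

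**Figure D1:**
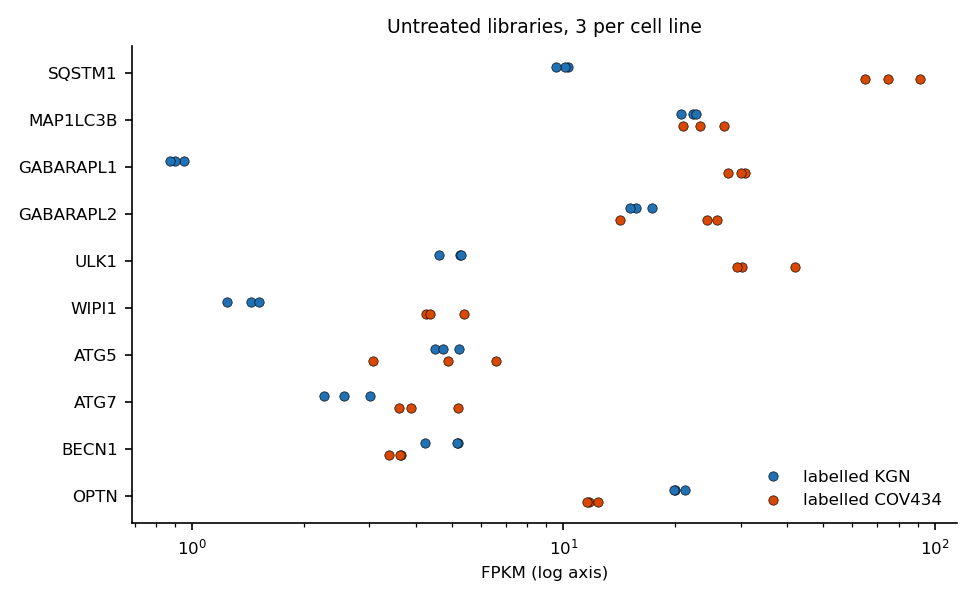
Level of each gene in the untreated libraries, in FPKM on a log axis, with 1 point per library and 3 libraries per cell line as labelled. GABARAPL1, SQSTM1, ULK1, WIPI1 and ATG7 lie lower without overlap in the libraries labelled KGN, OPTN and BECN1 higher, and MAP1LC3B, GABARAPL2 and ATG5 overlap.

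With 77-39, the libraries labelled KGN had more RNA of 5 of the 10 genes: MAP1LC3B, WIPI1, ATG7, SQSTM1 and OPTN. They cover membrane binding, conjugation, an ATG8 protein and both receptors. None fell, and GABARAPL1 was not tested because its mean was below 1 FPKM. The 5 of 9 tested stand beside 17.6% of all genes tested that rose and 34.0% that changed in either direction. In 6 of the 10 genes, the same 5 and ULK1, all treated libraries were above all untreated ones, against 26.3% of all genes tested. In a fit of all 12 libraries, MAP1LC3B was the 1 gene of the 9 tested still called, and that fit called 1237 of all 12671 genes.

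Among the genes of initiation, ULK1 was at 4.63, 5.26 and 5.31 FPKM in the untreated and 5.32, 5.42 and 6.01 FPKM in the treated libraries labelled KGN. The groups were apart by a small margin, with a log2 fold change of 0.12 (95% interval -0.04 to 0.28, limma adjusted p = 0.219). BECN1, the core of the lipid kinase complex, was at 5.2, 5.17 and 4.25 FPKM and then at 4.92, 4.42 and 4.61. Its groups overlapped, and the log2 fold change of -0.05 (-0.24 to 0.13) did not pass.

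WIPI1, which binds the phosphoinositide made by that complex, was at 1.44, 1.51 and 1.24 FPKM in the untreated and 2.38, 1.89 and 2.87 in the treated libraries, or 83 to 91 and 113 to 163 reads. All treated libraries were higher, with means in a ratio of 1.70 and a log2 fold change of 0.49 (SE 0.12, limma adjusted p = 0.0206). Without untreated library 3 or treated library 1 the limma adjusted p was 0.0673 or 0.0623, with fold changes of 0.44 and 0.48, and it was called in 10 of 15 alternatives, as were ATG7 and OPTN. Of the exon bases of WIPI1, 24.3% are shared with ARSG on the opposite strand, and the library kit does not mark strand, so reads of these genes cannot be told apart there.

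ATG7, the enzyme that activates the ATG8 proteins, was at 2.26, 3.02 and 2.57 FPKM in the untreated and 3.58, 3.57 and 3.39 in the treated libraries. The treated libraries were close to each other and above the others, and ATG7 rose by a log2 fold change of 0.33 (SE 0.08, limma adjusted p = 0.0252). Without untreated library 3, treated library 1 or treated library 2 the limma adjusted p was 0.072, 0.0749 and 0.0796. Of its exon bases, 18.1% are shared with VGLL4 on the opposite strand. ATG5, which joins the same conjugation cascade, was at 4.52, 5.22 and 4.74 FPKM and then at 5.03, 5.28 and 5.24. Its groups overlapped, and the log2 fold change was 0.09 (-0.05 to 0.23).

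Among the ATG8 genes, MAP1LC3B (chr16:87383995-87404779), which encodes the LC3B protein used as the standard mark of autophagosomes, was at 22.3, 22.7 and 20.7 FPKM in the untreated and 36.2, 36.2 and 36.1 in the treated libraries labelled KGN. The treated libraries were almost equal (SD 0.0514 FPKM) and far above the untreated ones, on 2058 to 3486 reads. With 3 libraries, so small a spread is not a measure of precision. MAP1LC3B rose by a log2 fold change of 0.70 (SE 0.05, limma adjusted p = 0.000247), with means in a ratio of 1.65, and was called in 15 of 15 alternative analyses. Its near-identical copy MAP1LC3B2, at 1.13 to 1.85 FPKM untreated and 2.09 to 2.51 treated, may share reads with it, and how such reads were assigned is not given in the sources used here.

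GABARAPL2 was at 17.3, 15.7 and 15.1 FPKM and then at 15.5, 16.2 and 16.8, with overlapping groups and a log2 fold change of 0.02 (-0.13 to 0.16). GABARAPL1 was near 1 FPKM, at 0.95, 0.902 and 0.87 untreated and 0.863, 0.708 and 1.08 treated, and its groups overlapped. With a lower filter its log2 fold change was -0.02. Of the 3 ATG8 genes, 1 of the 2 tested was called.

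Both receptors rose. SQSTM1 (chr5:179806398-179838078) was at 10.3, 10.1 and 9.53 FPKM in the untreated and 12.2, 12.2 and 13.7 in the treated libraries labelled KGN. All treated libraries were higher, with means in a ratio of 1.27 and a log2 fold change of 0.32 (SE 0.06, limma adjusted p = 0.00836). It was called in 14 of 15 alternatives, the exception being the fit of all 12 libraries (limma adjusted p = 0.143). MRNIP on the opposite strand shares 20.7% of its exon bases. OPTN, a receptor for damaged mitochondria and bacteria, was at 21.2, 20 and 19.8 FPKM and then at 23.0, 23.9 and 23.3. The groups did not overlap, and OPTN rose by a log2 fold change of 0.19 (SE 0.04, limma adjusted p = 0.0155). Without untreated library 2, untreated library 3 or treated library 2 the limma adjusted p was 0.0557, 0.0619 and 0.065.

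**Figure D2:**
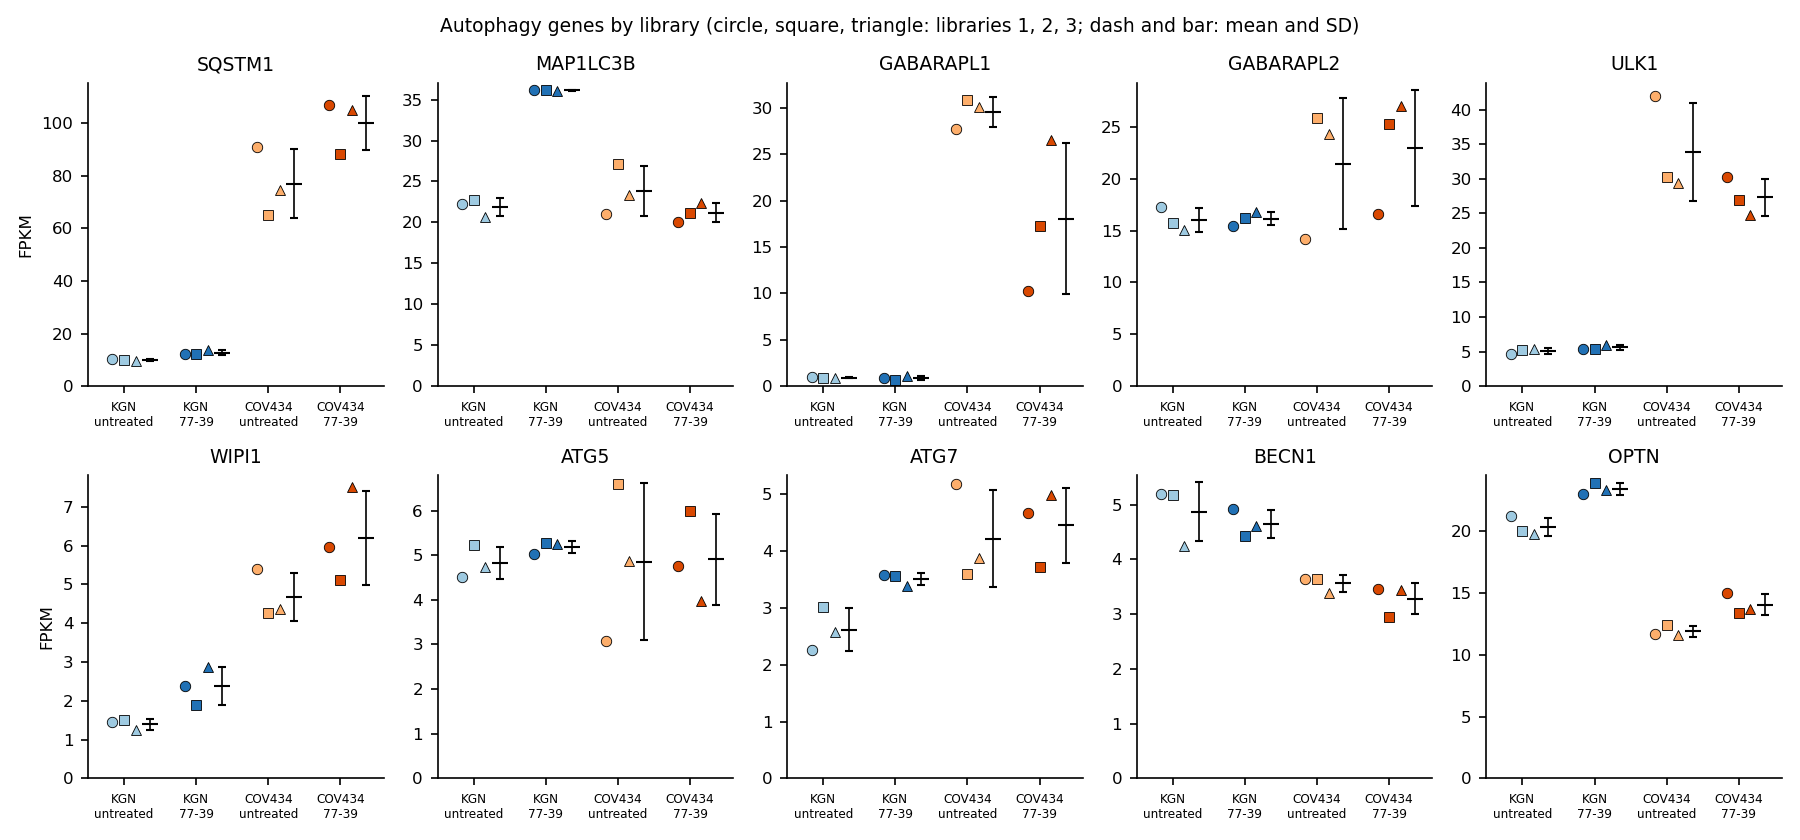
Level of each of the 10 genes in FPKM on a linear axis from 0, by group as labelled. Circles, squares and triangles are libraries 1, 2 and 3, and the dash and bar give the mean and SD. MAP1LC3B shows treated libraries labelled KGN at 36.1 to 36.2 FPKM, above all others.

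In the libraries labelled COV434, limma called 0 of the 10 genes at an adjusted p under 0.05, against 0.0415% of all genes tested (5 of 12060). Voom of limma on the recovered reads also called 0. At an unadjusted p under 0.05 the count was 1, GABARAPL1, beside 8.0% of all genes. With the library number as a block, since same-numbered libraries of this line deviated together, the unadjusted count was 3: SQSTM1, GABARAPL1 and ULK1, with limma adjusted p-values of 0.177, 0.186 and 0.316. The labels state no such pairing, which was read from these same values. In the fit with the block, 1739 of all 12060 genes tested had an unadjusted limma p under 0.05. Treated and untreated libraries were apart for OPTN (higher) and GABARAPL1 (lower), 2 of 10 genes beside 14.4% of all genes.

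GABARAPL1 was at 27.7, 30.8 and 30.1 FPKM in the untreated and 10.3, 17.3 and 26.5 in the treated libraries labelled COV434. The treated libraries spread widely, with an SD of 8.11 around a mean of 18.0, and the third of them was close to the untreated ones. The log2 fold change was -0.77 (95% interval -1.44 to -0.10, limma adjusted p = 0.514). Treated library 1, with the lowest value, also had the highest mitochondrial share of reads, and the part of that in the value was not tested. The summed level of the leukocyte, endothelial and epithelial markers was also lower in the treated libraries. The fall was carried by the endothelial gene CDH5, at 1.57 to 2.22 FPKM untreated and 0.34 to 0.626 treated. PECAM1, also endothelial, was at 0.0682 to 0.233 FPKM untreated and 0.0216 to 0.0344 treated. The epithelial gene CDH1 went the other way, with overlap, at 0.00952 to 0.117 FPKM untreated and 0.0986 to 0.226 treated. VWF, endothelial too, overlapped, at 0.0113 to 0.046 FPKM untreated and 0.0176 to 0.0386 treated. PECAM1, CDH1 and VWF all lay below the 1 FPKM used as the filter of the tests. CD3E and LYZ were at 0 in all 6. The part of these markers in the GABARAPL1 value was not tested either. Without both libraries numbered 1, left out together, the fold change of GABARAPL1 was -0.49 (limma adjusted p = 0.354). It was -0.44 without treated library 1 alone and -1.08 without treated library 3 alone, neither called.

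SQSTM1 was at 91.0, 65.0 and 74.8 FPKM in the untreated and 107.0, 88.5 and 105.0 in the treated libraries labelled COV434. The groups overlapped at 1 value, because untreated library 1 lay above treated library 2, while within each number the treated library was the higher. The log2 fold change was 0.38 (-0.03 to 0.80, limma adjusted p = 0.661), with an interval that holds the 0.32 of the libraries labelled KGN. OPTN was at 11.7, 12.4 and 11.6 FPKM and then at 15.0, 13.4 and 13.7. Its groups did not overlap, and the log2 fold change of 0.22 (-0.09 to 0.52) did not pass. WIPI1 was at 5.39, 4.27 and 4.37 FPKM and then at 5.97, 5.12 and 7.5, a log2 fold change of 0.33 (-0.06 to 0.72) with overlapping groups.

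MAP1LC3B was at 21.0, 27.1 and 23.4 FPKM in the untreated and 20.1, 21.1 and 22.4 in the treated libraries labelled COV434. The groups overlapped, with a log2 fold change of -0.16 (-0.50 to 0.19, limma adjusted p = 0.902). ULK1 was at 42.0, 30.2 and 29.4 FPKM and then at 30.2, 26.9 and 24.8. The highest value was that of untreated library 1, and the fold change was -0.29 (-0.70 to 0.13).

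Library number 1 was low for GABARAPL2 in both groups, at 14.2 FPKM untreated and 16.6 treated, where the other 4 libraries were at 24.3 to 27.0 FPKM. Its log2 fold change was 0.11 (-0.50 to 0.72). ATG5 ranged from 3.08 to 6.6 FPKM untreated and 3.97 to 5.99 treated, with number 2 highest in both groups, and had a fold change of 0.04 (-0.51 to 0.60). ATG7 lay at 3.6 to 5.19 FPKM untreated and 3.72 to 4.99 treated (0.07, -0.33 to 0.47), and BECN1 at 3.39 to 3.65 FPKM untreated and 2.95 to 3.45 treated (-0.09, -0.41 to 0.22). These intervals do not use the library numbers. With the numbers as a block, a pairing read from these same values, the interval of GABARAPL2 was -0.15 to 0.37. Those of SQSTM1 and ULK1 were 0.14 to 0.63 and -0.55 to -0.02. Within each number the treated library was the higher for WIPI1 and the lower for MAP1LC3B and ULK1, and with the block WIPI1 (-0.03 to 0.70) and MAP1LC3B (-0.43 to 0.12) had intervals that hold 0.

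**Figure D3:**
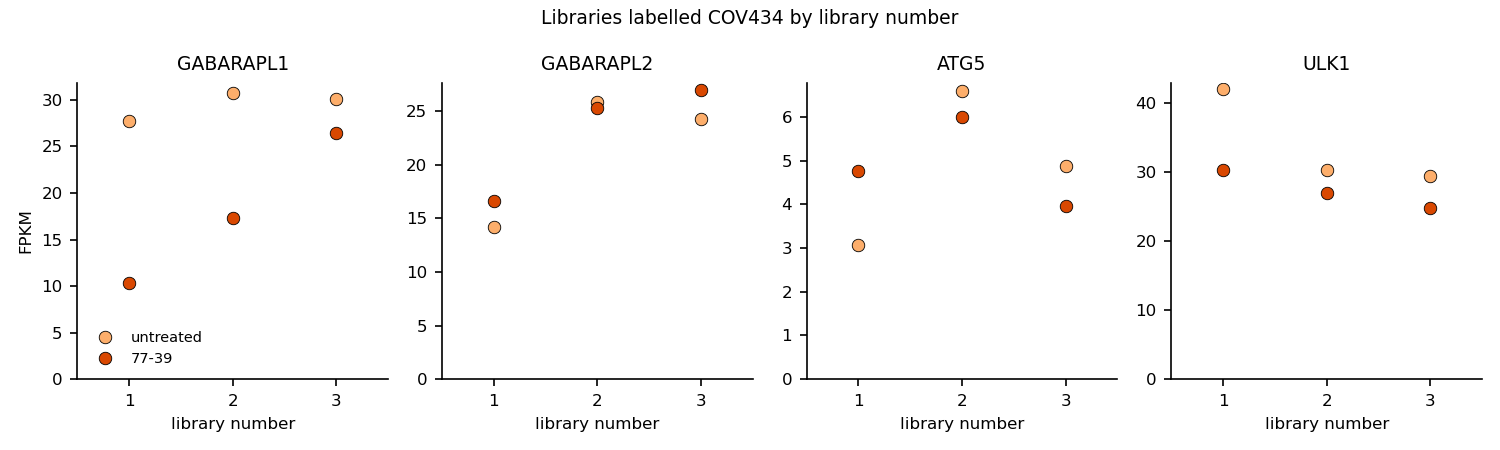
Levels of GABARAPL1, GABARAPL2, ATG5 and ULK1 in FPKM (axes from 0) in the 6 libraries labelled COV434, by library number, with light points untreated and dark points treated. Number 1 is low for GABARAPL2 in both groups, and GABARAPL1 is lower in the treated library of every number.

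The responses were compared directly over all 12 libraries. MAP1LC3B was the 1 gene of the 10 whose response differed, being larger in the libraries labelled KGN by 0.85 on the log2 scale (SE 0.14, 95% interval 0.55 to 1.15, limma adjusted p = 0.0102), and it passed in 21 of 21 alternatives. Of all genes tested, 3.6% passed this test. GABARAPL1 differed by 0.75 (0.01 to 1.49, limma adjusted p = 0.273), and it passed only without treated library 3 of COV434 (1.06, limma adjusted p = 0.037). The difference was 0.41 (-0.01 to 0.82) for ULK1 and 0.26 (-0.15 to 0.66) for ATG7. For SQSTM1 it was -0.07 (-0.46 to 0.32), for OPTN -0.02 (-0.25 to 0.21) and for WIPI1 0.15 (-0.29 to 0.59), so a call in 1 line only was not shown to be a difference between the lines. The remaining 3 genes had differences between -0.09 and 0.04.

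**Figure D4:**
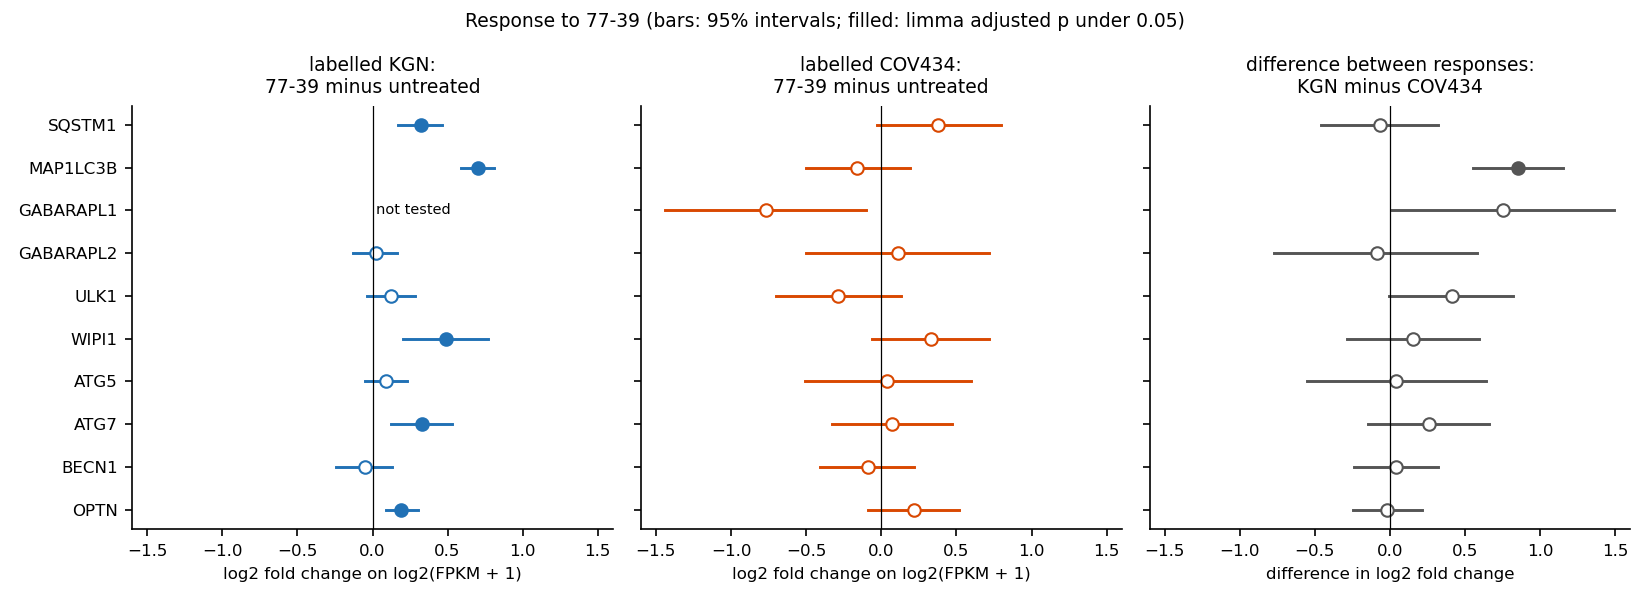
Log2 fold change (77-39 minus untreated) of each gene in the libraries labelled KGN and COV434, and the difference between them, on the log2(FPKM + 1) scale. Bars are 95% intervals and filled points have a limma adjusted p under 0.05, which holds for 5 genes in KGN, 0 in COV434 and MAP1LC3B in the difference.

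The rest of the pathway was read from 8 lists of 70 further genes. In the libraries labelled KGN, 66 were tested, of which 22 rose, 7 fell and 37 did not pass, with a median log2 fold change of 0.09 against 0.01 over all genes. Of all genes tested, 17.6% rose and 16.4% fell, and the counts of each list below are to be set beside these shares. In the libraries labelled COV434, limma called 0 of 67, with 0 higher and 6 lower at an unadjusted p under 0.05 (4.49% of all genes were lower by this rule), and the median was -0.05 against -0.02 over all genes.

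The called genes of the lists on the ULK and lipid kinase complexes all rose in KGN as labelled. Of the ULK complex, 2 of 4 rose, led by RB1CC1, the scaffold of the complex, from 10.2 ± 1.14 to 14.4 ± 0.239 FPKM (log2 fold change 0.47, limma adjusted p = 0.00439). Of the lipid kinase complex and its regulators, 4 of 7 rose, led by NRBF2, a subunit, from 8.32 ± 0.187 to 10.5 ± 0.477 FPKM (0.30, limma adjusted p = 0.00421). The others called in these lists were ULK2, PIK3R4, ATG14 and RUBCN. PIK3R4 (limma adjusted p of 0.05 after rounding) and RUBCN (0.0471) were near the threshold. The ATG9 and lipid transfer list had 1 of 6 higher, WDR45, a relative of WIPI1 (0.31, limma adjusted p = 0.0171). WDR45 was called in 11 of 15 alternatives.

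The conjugation list was split, with 2 of 8 higher and 1 lower. ATG4C rose from 65.9 ± 2.67 to 87.3 ± 3.78 FPKM (0.40, limma adjusted p = 0.0023) and ATG4D fell from 7.01 ± 0.304 to 4.93 ± 0.924 FPKM (-0.44, limma adjusted p = 0.0206), both being proteases that process ATG8 proteins. ATG4C was called in 14 of 15 alternatives and ATG4D in 11 of 15. Of the other ATG8 genes, MAP1LC3B2 was called of 3 tested (0.42, limma adjusted p = 0.0348), but it passed in 7 of 15 alternatives only and carries the doubt on shared reads given above.

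The other cargo receptors went both ways, with 5 of 15 higher and 3 lower beside 17.6% and 16.4% of all genes. CCPG1, a receptor for the endoplasmic reticulum, rose from 3.11 ± 0.048 to 5.87 ± 0.0445 FPKM (0.74, limma adjusted p = 0.000183), and NBR1, CALCOCO2, TAX1BP1 and SEC62 rose as well. BNIP3L, a receptor for mitochondria, fell from 15.0 ± 1.35 to 6.89 ± 0.303 FPKM (-1.02, limma adjusted p = 0.000281), with BNIP3 and FKBP8, which are also receptors for mitochondria. In the libraries labelled COV434, BNIP3 and BNIP3L were the 2 receptors with an unadjusted p under 0.05 (log2 fold changes -1.20 and -0.96), with limma adjusted p-values of 0.066 and 0.0925.

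Of the genes of fusion with lysosomes, 4 of 8 rose and none fell, led by LAMP2, a lysosomal membrane protein, from 18.9 ± 0.655 to 33.0 ± 1.33 FPKM (0.77, limma adjusted p = 0.000217). Of the upstream regulators, 3 of 15 rose and 3 fell, near the shares of all genes. DDIT3, a transcription factor of the integrated stress response, rose from 54.2 ± 0.746 to 99.1 ± 1.9 FPKM (0.86, limma adjusted p = 0.000116), and KEAP1, the inhibitor of NFE2L2, fell from 19.8 ± 0.799 to 15.5 ± 0.273 FPKM (-0.34, limma adjusted p = 0.00236). TBK1 and SESN2 also rose, and TFEB (-0.27, limma adjusted p = 0.0379) and DDIT4 also fell. NFE2L2 (0.08, limma adjusted p = 0.294) and ATF4 (-0.18, limma adjusted p = 0.0541) did not pass. In the libraries labelled COV434, NFE2L2 had a log2 fold change of -0.6 (limma adjusted p = 0.523). The response differed between the lines for 3 of 68 list genes, near the 3.6% of all genes. These were MAP1LC3B2, LAMP2 and SESN2, by 0.80, 0.63 and 0.91 (limma adjusted p = 0.0467, 0.0298 and 0.0212), each larger under the KGN label.

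**Figure D5:**
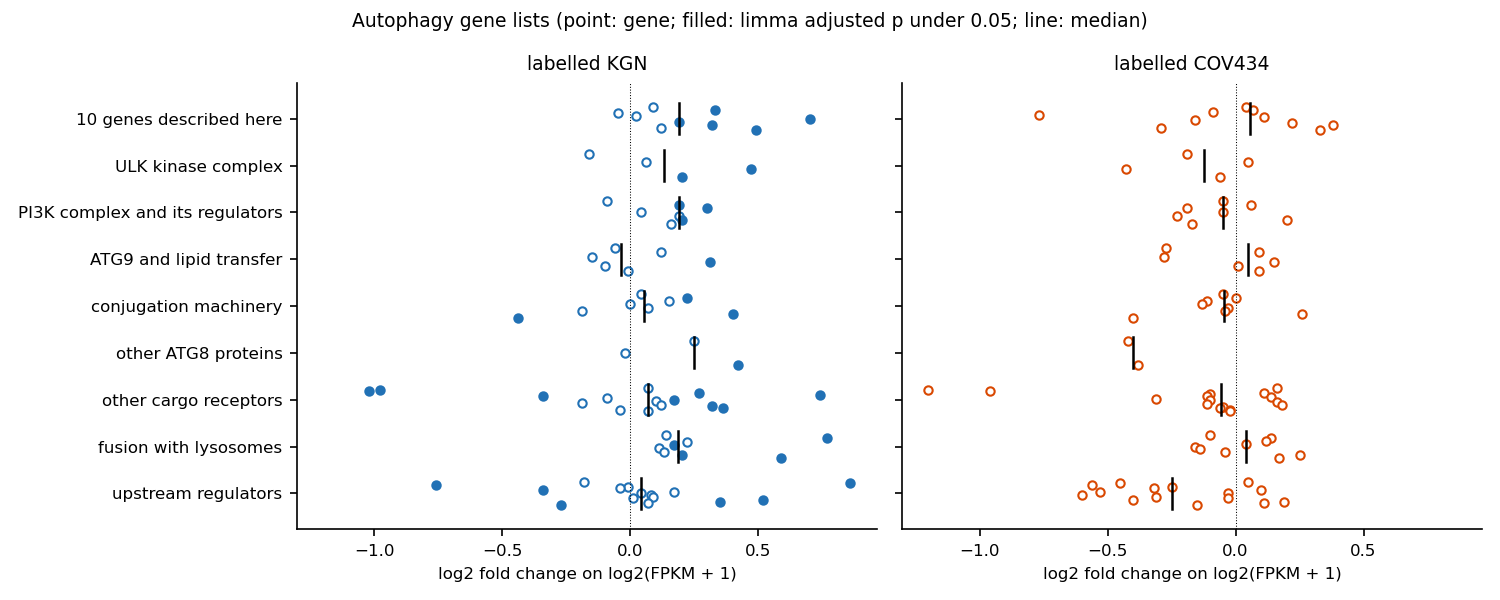
Log2 fold change (77-39 minus untreated) of each tested gene of the 10 genes and of 8 pathway lists, in the libraries labelled KGN and COV434. Each point is a gene, filled at a limma adjusted p under 0.05, and vertical lines are medians. In KGN 22 list genes rose and 7 fell, and in COV434 none was called.

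The 5 genes whose profile over the 12 libraries was nearest to that of SQSTM1, each set against the untreated mean of its own line, were ZPR1, ZDHHC9, ZNF449, SLC39A11 and TRMT12, at Euclidean distances of 0.28 to 0.295 on the log2(FPKM + 1) scale. The median distance of the 10234 genes compared was 1.23. Among the 10 genes, WIPI1 (0.458), OPTN (0.576) and ATG7 (0.633) were nearest to SQSTM1 and GABARAPL1 (2.34) was farthest, which describes these libraries and is no test.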

How the data were processed

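The 12 RNA-seq libraries form 4 groups of 3 by their labels (line, and 77-39 or none). The authors deposited FPKM, normalized for gene length and library size. Alignment was with HISAT2 2.0.5 per the submitters' processing notes, which list mouse builds, whereas all 58735 genes match GENCODE release 29 on GRCh38. The counting program and its strand setting are not given in the sources used here. FPKM times length gave whole reads for 100% of values (tolerance 0.05), with 15547851 to 18280415 reads per library. A count of 3 reads on a gene of 1 kb equals 0.152 to 0.2 FPKM, for counting error only.

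Tests were two-sided fits of limma 3.58.1 (lmFit, and eBayes with a trend) in R 4.3.3 on log2(FPKM + 1), for genes averaging at least 1 FPKM, adjusted by Benjamini-Hochberg over all genes tested. Each line was fitted alone, and the difference as an interaction over all 12 libraries. The fit within each line was checked on simulated libraries, drawn independently of each other. The fits of the difference and of the untreated lines were not checked in this way. The 10 genes, the 8 lists and the tests were chosen with earlier results of these data known. The text names all 10 genes and, from each list and line, the gene with the smallest p in each direction among those with an adjusted p under 0.05 and no overlap. MAP1LC3B2, LAMP2 and SESN2 in the comparison of responses, the other list genes named, and the promoters shown were chosen after their values were seen. Genes like SQSTM1 averaged at least 1 FPKM in both lines. The main tests do not use the library numbers. The numbers enter only as the replicate block, an alternative run in each line and in the difference. Same-numbered libraries labelled COV434 deviated together (correlations over 12060 genes of 0.4, 0.474 and 0.166). Those labelled KGN did not (-0.0164, -0.018 and -0.019). The labels state no pairing by number, and that of COV434 was read from the same values that were tested. In COV434, untreated library 3 and treated library 2 correlated at 0.154, close to the 0.166 of number 3. The alternatives tried were quantile and median-ratio scaling, a pseudocount of 0.1, no filter or one at 0.1 FPKM, 1 fit of 12 libraries, protein-coding genes only, the replicate block, voom on recovered reads and each library left out, and, added after seeing the data, both COV434 libraries numbered 1 left out. Promoters are from RefSeq (GRCh38.p14). Python 3.11.15, numpy 2.4.6, pandas 2.3.3 and matplotlib 3.10.9 were used.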

Additional observations from a re-analysis of the deposited data

Results flagged for a closer look

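The response of MAP1LC3B to 77-39 differed between the cell lines by the test of the difference itself, by 0.85 on the log2 scale (KGN minus COV434, SE 0.14, limma adjusted p = 0.0102). All 3 treated libraries labelled KGN, at 36.1 to 36.2 FPKM, were above the 3 untreated ones at 20.7 to 22.7 FPKM, while in the libraries labelled COV434 the ranges of 20.1 to 22.4 and 21.0 to 27.1 FPKM overlapped. The near-identical copy MAP1LC3B2 differed in the same direction, by 0.80 (limma adjusted p = 0.0467), and reads shared between these genes cannot be told apart here.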

How the results depend on the processing

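MAP1LC3B was called in the libraries labelled KGN and in the difference under every alternative run. In KGN as labelled, the 5 called genes became 3 without a filter and 3 with the replicate block (numbers do not pair these libraries). The count was 1 in a fit of all 12 libraries and 2 to 5 with single libraries left out, with 2 without untreated library 3. At an unadjusted limma p under 0.05, it was 5 with each library left out. Over all genes, 5743 of 12671 had such an unadjusted p with all libraries, and 4770 to 5658 with single libraries left out. Adjusted calls over all genes were 2949 of 32824 without a filter, 3277 of 12671 with the block and 2751 to 4128 with single libraries left out. In COV434, the 1 gene at an unadjusted limma p under 0.05 became 3 with the block and 4 in a fit of 12 libraries. With single libraries left out the count was 0 to 3, and the block changed no adjusted call. Over all genes, the unadjusted rule held for 965 of 12060 as reported, 1739 with the block and 2121 in the fit of 12. It held for 589 to 1215 genes with single libraries left out. With single libraries left out, 1 or 2 genes differed in response and 5 to 8 differed between the untreated lines. Over all genes, these fits called 126 to 975 for the response and 7802 to 10099 for the untreated lines. Every direction that turned belonged to a value that was not called as reported, although MAP1LC3B between the untreated lines passed after quantile normalization (limma adjusted p = 0.0263). These were GABARAPL2 in KGN (-0.01 with median-ratio scaling, -0.02 to 0.07 with single libraries left out), and in COV434 GABARAPL2 (-0.15 to 0.32 with single libraries left out, as for the ranges that follow), ATG5 (-0.18 without both libraries numbered 1, range -0.19 to 0.25) and ATG7 (-0.02 to 0.20). In the difference they were SQSTM1 (-0.19 to 0.05), GABARAPL2 (-0.30 to 0.17), ATG5 (-0.17 to 0.28), BECN1 (-0.04 to 0.08) and OPTN (0.03 without both libraries numbered 1, range -0.05 to 0.02). Between the untreated lines they were MAP1LC3B (0.30 with quantile normalization, 0.09 with voom), GABARAPL2 (0.01 with quantile normalization) and ATG5 (-0.20 to 0.25). The causes were not tested. Over all genes, the calls in KGN went from 4307 to 1237 in the fit of all 12 libraries, and those in COV434 from 5 to 87 with the block and 488 in that fit. Voom moved the median difference of all genes between the untreated lines from -0.02 to 0.18. In COV434 the block narrowed the SE of SQSTM1 from 0.18 to 0.10 and that of GABARAPL2 from 0.27 to 0.11, with 0 of the 10 genes called after adjustment by either fit.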
